A study of Caenorhabditis elegans with 8 samples.

Results

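Iron and zinc handling in the nematode Caenorhabditis elegans was followed through 6 genes: the ferritin genes ftn-1 and ftn-2, the iron importer gene smf-3, and the zinc transporter genes cdf-2, ttm-1 and zipt-2.3. Each was taken as the row of the deposited read count table that carries its symbol, and all 6 had exactly 1 row among 21309. The table came from RNA sequencing of total RNA of whole worms in 8 libraries. There were 3 libraries of worms given 200 µM magnolol for 1 h, 2 libraries of worms given 200 µM honokiol for 1 h, and 3 libraries of DMSO control worms. Magnolol and honokiol are biphenols of Magnolia bark and positional isomers, with allyl and hydroxyl groups at different places on the joined rings. Neither the strain, stage and age of the worms nor the culture behind each replicate is given in the sources used here, so p-values measure the spread between these libraries, which may be technical.

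Worms keep iron safe inside ferritin shells, which FTN-1 and FTN-2 form, and take it up from the gut through SMF-3, a relative of the mammalian transporter DMT1. When iron is scarce, the transcription factor HIF-1 is known to lower the ferritin transcripts and raise smf-3, and the gut factor ELT-2 is needed for ferritin expression in the intestine. Zinc is stored in the gut granules of intestinal cells. CDF-2 moves zinc into these granules, ZIPT-2.3 lets it out again when zinc is short, and TTM-1 exports zinc from intestinal cells. In excess zinc the nuclear receptor HIZR-1 is known to raise cdf-2, ttm-1 and the metallothionein genes mtl-1 and mtl-2.

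The genes lie apart from each other as protein-coding genes of the WBcel235 assembly. On the minus strand, ftn-1 runs from 7546468 to 7547579 of chromosome V, and ftn-2 from 3680180 to 3680927 of chromosome I. On the plus strand, smf-3 runs from 2618869 to 2625503 of chromosome IV. On the minus strand, cdf-2 runs from 12464640 to 12466917 of chromosome X, ttm-1 from 12952969 to 12966995 of chromosome III, and zipt-2.3 from 13712906 to 13715879 of chromosome II. The exons sum to 606 bases for ftn-1, 651 for ftn-2, 1942 for smf-3, 1352 for cdf-2, 1865 for ttm-1 and 1109 for zipt-2.3. No annotated gene overlaps the first 5, whereas zipt-2.3 shares 26 exon bases with kqt-3 on the opposite strand. Counts are per gene, so the 3 annotated transcripts of ttm-1, of which a zinc-induced form is known, cannot be told apart.

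Total counts were 30274330 to 35888186 per library, and 16813 rows were tested after a filter on low counts. Levels are in CPM, counts scaled to each library's size. Changes are log2 fold changes ± SE from the two-sided quasi-likelihood test of edgeR, and a gene was called at a Benjamini-Hochberg adjusted p under 0.05 over all tested rows. Magnolol 2 and control 3 stood apart from the other libraries of their groups: chi-square per degree of freedom was 42.1 and 33 between magnolol 2 and the other magnolol libraries, against 8.55 between those, and 33 and 37.4 for control 3, against 11.8. Changes of the members and of called list genes were refitted without them. Other genes, among them mtl-1, fpn-1.2 and most tissue markers, are given from all libraries only. Between the 2 honokiol libraries chi-square per degree of freedom was 30.2, near the values of the libraries that stood apart. A pair cannot show which of its libraries differs.

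All 6 members passed the filter. With magnolol 1 of the 6, ftn-1, was called, and it was lower. Among all tested genes 2.87% were called with magnolol, 2.16% higher and 0.702% lower. With honokiol 0 of the 6 were called in edgeR, limma-voom and DESeq2, against 3.43% of all tested genes (3.04% higher, 0.393% lower), and ftn-1 and cdf-2 had an unadjusted p under 0.05. The largest and smallest changes of the members were 0.24 (ttm-1) and -0.64 (ftn-1) with magnolol, with a median of -0.11 against 0.0027 over all tested genes. With honokiol they were 0.99 (zipt-2.3, on few counts) and -0.56 (ftn-1), with a median of 0.20 against -0.012.

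**Figure D1:**
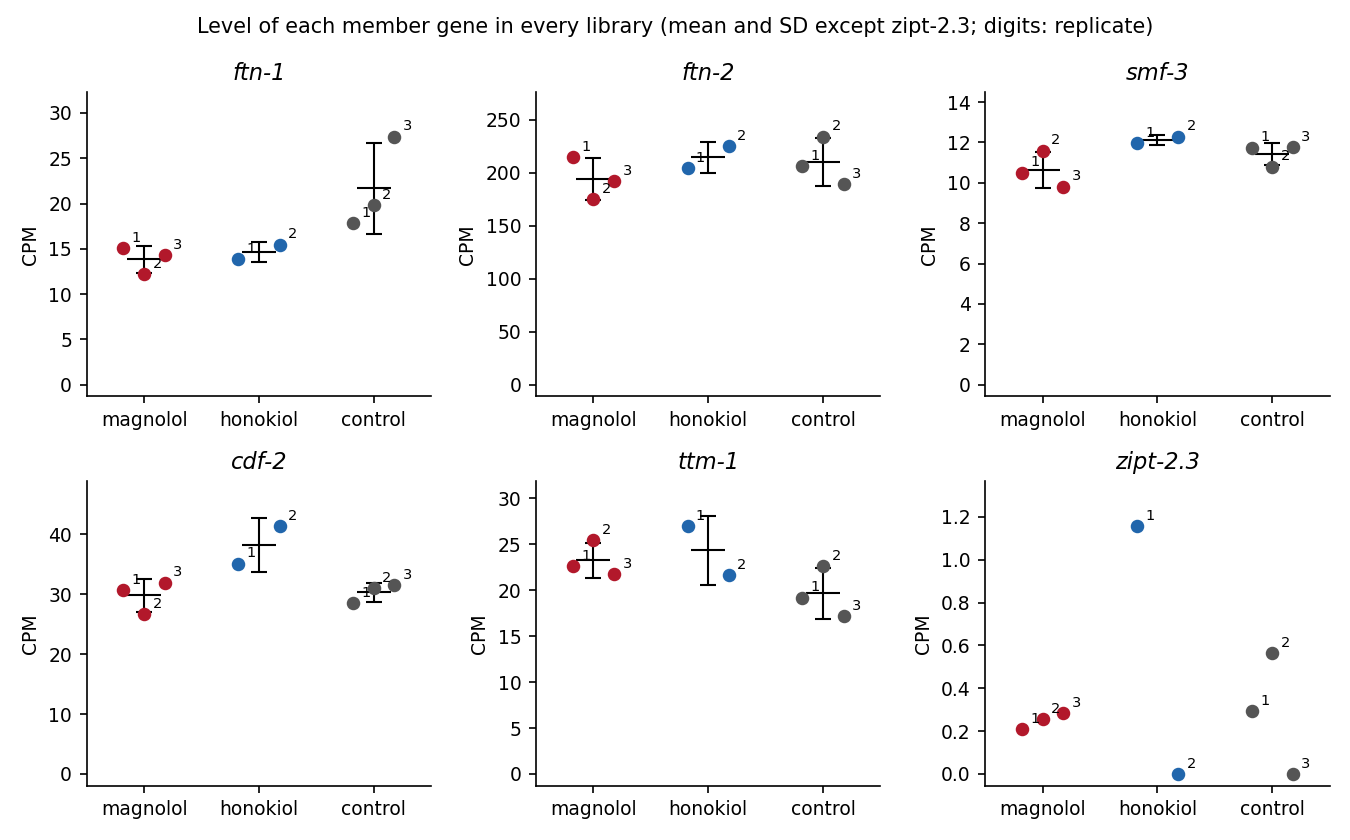
CPM (vertical axis, linear, from 0) of each member gene in the magnolol, honokiol and control libraries, with points for libraries, digits for replicate numbers and bars for mean and SD (no bars for zipt-2.3). Every magnolol and honokiol point of ftn-1 lies below every control point, the honokiol points of cdf-2 lie above the others, and zipt-2.3 has libraries at 0 in the honokiol and control groups.

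The ferritin gene ftn-1 was lower after magnolol. It stood at 15.1, 12.2 and 14.3 CPM in magnolol libraries 1 to 3, at 13.8 and 15.5 CPM in honokiol libraries 1 and 2, and at 17.8, 19.8 and 27.4 CPM in control libraries 1 to 3. All 5 libraries of treated worms lay below all 3 control libraries, and control 3 was well above the other controls. The means were 13.9 ± 1.5 CPM with magnolol (SD, n = 3), 14.6 ± 1.15 CPM with honokiol (SD, n = 2) and 21.7 ± 5.04 CPM in control (SD, n = 3). With magnolol the change was -0.64 ± 0.16 (95% interval -0.98 to -0.31), a fitted level 35.9% lower than in control, and edgeR gave adjusted p = 0.0405. In whole worms, fewer cells of a type and less RNA per cell cannot be told apart.

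The magnolol call on ftn-1 rested on single libraries. Its adjusted p in edgeR was 0.0654, 0.168 and 0.118 without magnolol 1, 2 and 3, and 0.0686 and 0.126 without control 2 and control 3. Without control 3 the change was -0.44 ± 0.13, and without control 3 and magnolol 2 together it was -0.37 ± 0.14 with adjusted p = 0.271 in edgeR. The direction was lower in each of these fits. Leaving out libraries could hardly reverse it, since every magnolol library lay below every control library.

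With honokiol the ftn-1 change was -0.56 ± 0.18 (95% interval -0.94 to -0.19), with unadjusted p = 0.00637 and adjusted p = 0.132 in edgeR. It was -0.35 without control 3, a change more than 1.5 times smaller. After each library was corrected for its trend with exon length, it was -0.60 ± 0.14 with adjusted p = 0.018 in edgeR, so that setting called it. The 2 comparisons share the control libraries, control 3 included. Groups that do not overlap, as for ftn-1, were found in the lower direction for 10.3% of tested genes with magnolol and 10.5% with honokiol.

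**Figure D2:**
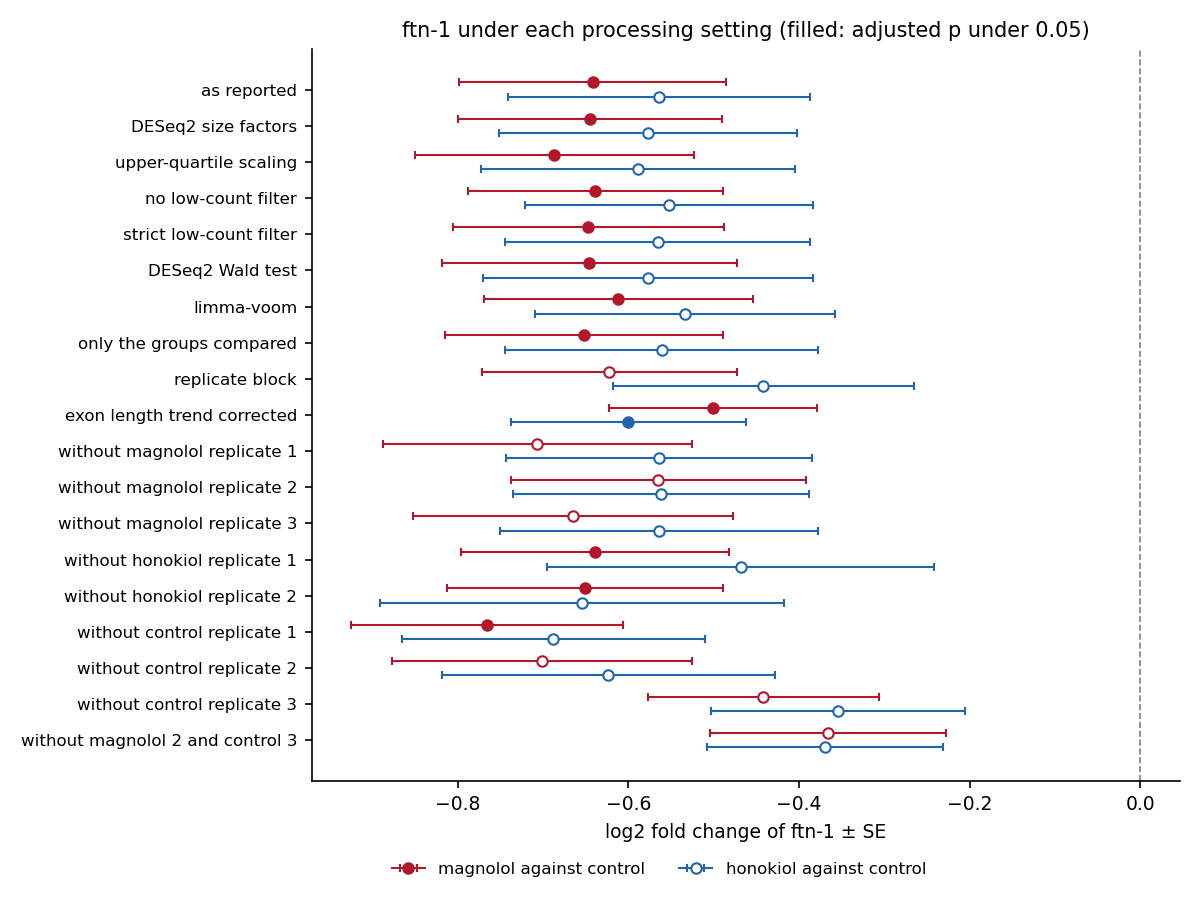
Log2 fold change of ftn-1 ± SE (horizontal axis) for magnolol against control and honokiol against control under each processing setting (vertical axis), with filled points where adjusted p is under 0.05. All points lie below 0, and the changes nearest 0 are -0.37 for magnolol, without magnolol 2 and control 3, and -0.35 for honokiol, without control 3.

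The other ferritin gene, ftn-2, was not called with either compound. It stood at 214.7, 175.2 and 192.4 CPM in magnolol libraries 1 to 3, at 204.2 and 225.0 CPM in honokiol libraries 1 and 2, and at 206.3, 234.1 and 189.2 CPM in control libraries 1 to 3. The 3 groups overlapped. The change was -0.11 ± 0.11 with magnolol (95% interval -0.34 to 0.12) and 0.032 ± 0.12 with honokiol (95% interval -0.22 to 0.29).

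Ferritin transcripts were mainly those of ftn-2. Per kilobase of exon, ftn-2 had 298 ± 30.4 CPM with magnolol, 330 ± 22.6 CPM with honokiol and 322 ± 34.8 CPM in control, which placed it above 98.0%, 98.2% and 98.1% of 15070 tested genes with an exon length. On that scale ftn-1 had 22.9 ± 2.47 CPM with magnolol, 24.2 ± 1.90 CPM with honokiol and 35.8 ± 8.32 CPM in control. Per length, ftn-1 made up 7.02%, 6.96% and 7.40% of ferritin transcripts in magnolol libraries 1 to 3, 6.78% and 6.87% in honokiol libraries, and 8.49%, 8.35% and 13.5% in control libraries.

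A ratio of counts within a library does not depend on how libraries are scaled. Per 100 ftn-2 counts there were 7.03, 6.97 and 7.44 ftn-1 counts in magnolol libraries 1 to 3, 6.77 and 6.87 in honokiol libraries 1 and 2, and 8.63, 8.48 and 14.5 in control libraries 1 to 3. The treated libraries lay within a narrow range below all controls, and control 1 and 2 were closer to the treated libraries than to control 3. The mean log2 ratio differed by -0.51 for magnolol minus control (two-sided exact permutation p = 0.1, n = 3 and 3) and by -0.58 for honokiol minus control (two-sided exact permutation p = 0.2, n = 2 and 3). These are the smallest values that the designs allow. The ratio was chosen after the counts had been seen and uses the ftn-1 counts given above.

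**Figure D3:**
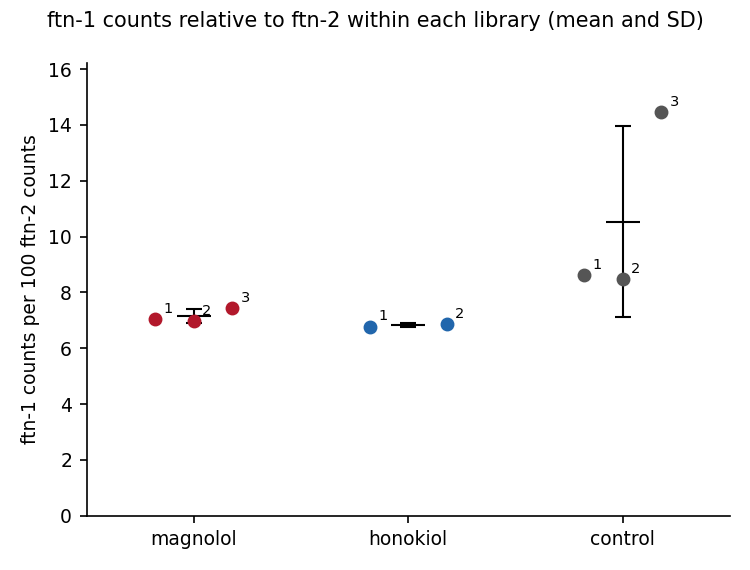
Counts of ftn-1 per 100 counts of ftn-2 on a linear axis from 0, with points for libraries in the magnolol, honokiol and control groups and bars for mean and SD. Treated libraries lie at 6.77 to 7.44, below control libraries at 8.48 to 14.5.

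The iron importer gene smf-3 was not called. It stood at 10.5, 11.6 and 9.81 CPM in magnolol libraries 1 to 3, at 11.96 and 12.28 CPM in honokiol libraries 1 and 2, and at 11.7, 10.8 and 11.8 CPM in control libraries 1 to 3. The honokiol libraries lay just above the others, and the magnolol and control libraries overlapped. The change was -0.11 ± 0.13 with magnolol (95% interval -0.38 to 0.17) and 0.084 ± 0.14 with honokiol (95% interval -0.22 to 0.39).

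The zinc transporter gene cdf-2 was higher in both honokiol libraries than in any other library. It stood at 30.7, 26.7 and 31.9 CPM in magnolol libraries 1 to 3, at 35.1 and 41.4 CPM in honokiol libraries 1 and 2, and at 28.5, 31.0 and 31.5 CPM in control libraries 1 to 3. The magnolol and control libraries overlapped. Honokiol against control gave 0.33 ± 0.12 (95% interval 0.080 to 0.59), with unadjusted p = 0.0136 and adjusted p = 0.220 in edgeR, so the difference did not pass the correction. It was 0.20 without honokiol 2. Magnolol against control gave -0.025 ± 0.11 (95% interval -0.26 to 0.21). With honokiol 2 of the 6 members, cdf-2 and smf-3, were higher in both treated libraries than in all controls, a pattern that 13.1% of all tested genes showed.

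The zinc exporter gene ttm-1 had higher means with both compounds, but no call. It stood at 22.6, 25.4 and 21.7 CPM in magnolol libraries 1 to 3, at 27.0 and 21.7 CPM in honokiol libraries 1 and 2, and at 19.2, 22.6 and 17.2 CPM in control libraries 1 to 3. Control 2 lay within the range of the treated libraries, and control 1 and 3 below it. The change was 0.24 ± 0.13 with magnolol (95% interval -0.04 to 0.52) and 0.31 ± 0.15 with honokiol (95% interval -0.0055 to 0.62), with adjusted p = 0.408 and adjusted p = 0.476 in edgeR. Without magnolol 2 and control 3 the magnolol change was 0.074, and the honokiol change was 0.15 without honokiol 1.

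The zinc importer gene zipt-2.3 was close to the limit of detection. It had 7, 8 and 10 counts in magnolol libraries 1 to 3, 39 and 0 counts in honokiol libraries 1 and 2, and 10, 19 and 0 counts in control libraries 1 to 3. The honokiol libraries differed from each other by more than counting error. The exact 95% Poisson interval is 27.7 to 53.3 for 39 counts and 0 to 3.69 for 0 counts. A set limit of 3 counts is 0.0890 CPM in honokiol 2 and 0.0992 CPM in control 3. Such intervals and limits cover counting error only. Fitted changes were -0.20 ± 1.2 with magnolol and 0.99 ± 1.26 with honokiol. No change of this gene was called, with these low counts and this spread between the honokiol libraries.

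**Figure D4:**
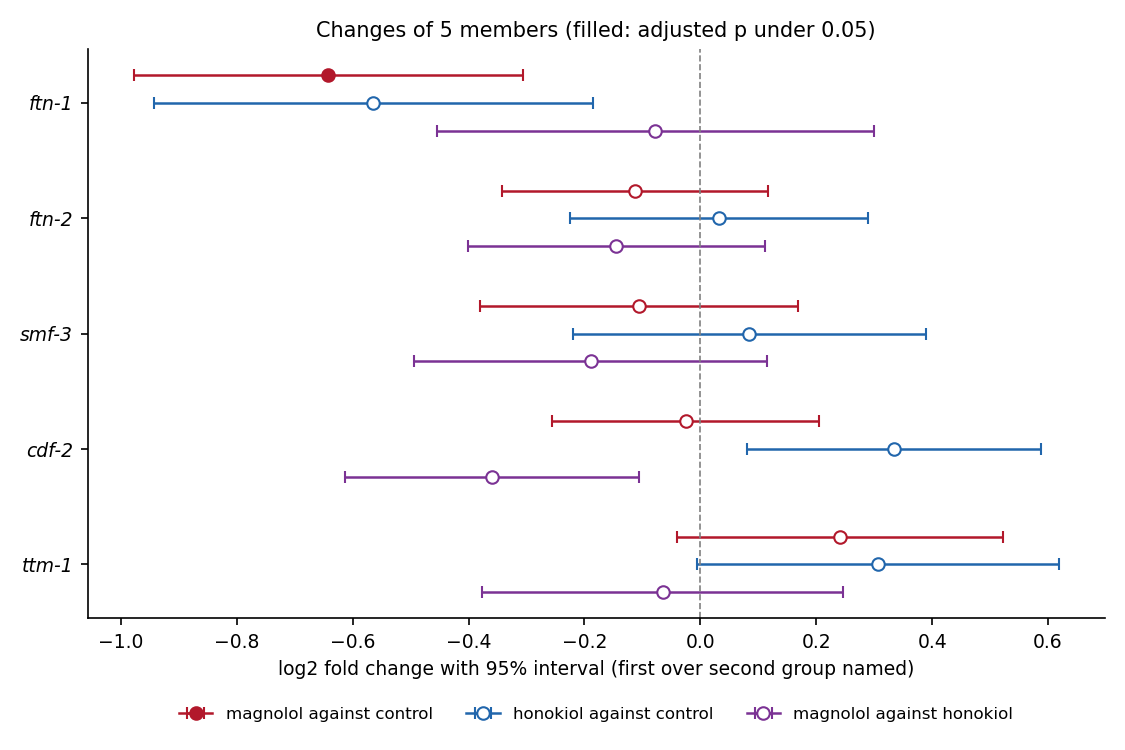
Log2 fold change with 95% interval (horizontal axis) of 5 members for each compound against control and for magnolol against honokiol, with filled points where adjusted p is under 0.05; zipt-2.3 is left out because its intervals span several log2 units. The intervals of ftn-1 lie below 0 for both compounds against control, and cdf-2 lies at 0.33 for honokiol against control and -0.36 for magnolol against honokiol.

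The isomers were compared directly at equal dose and time, as 1 pair of compounds with p-values adjusted over all tested genes. Of the 6 members 0 were called in edgeR, limma-voom and DESeq2, against 1.53% of all tested genes, and cdf-2 had an unadjusted p under 0.05. For ftn-1 the difference of magnolol minus honokiol was -0.078 ± 0.18, with a 95% interval of -0.45 to 0.30. For ftn-2 the interval was -0.40 to 0.11, for smf-3 -0.49 to 0.12 and for ttm-1 -0.38 to 0.25. These intervals include 0 and leave room for differences of either sign.

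Among the members, cdf-2 had the smallest p between the isomers. It stood at 29.8 ± 2.72 CPM with magnolol (SD, n = 3) and 38.2 ± 4.46 CPM with honokiol (SD, n = 2). The difference was -0.36 ± 0.12, with a 95% interval of -0.61 to -0.11, unadjusted p = 0.0089 and adjusted p = 0.160 in edgeR. It was -0.24 without honokiol 2, and lower with magnolol in all 18 alternative settings. Leaving out libraries could hardly reverse that direction, since these groups did not overlap. All 3 magnolol libraries lay below both honokiol libraries, as was the case for 18.3% of all tested genes in this direction. Tissue markers also differed between these libraries. Body wall muscle markers summed to 6348 to 10891 CPM with magnolol and 4146 to 6035 CPM with honokiol, against 5899 to 7164 CPM in control, and all 3 tested were higher with magnolol at an unadjusted p under 0.05, with a median difference of 0.49. Of 5 oocyte and yolk markers 4 were higher with magnolol at an unadjusted p under 0.05, with a median difference of 0.34. Of these 8 markers edgeR and limma-voom called 0 and DESeq2 called 1, oma-1. For unc-54 and vit-2 the extremes were magnolol 2 and honokiol 2. In magnolol libraries 1 to 3 and honokiol libraries 1 and 2, unc-54 stood at 5244, 9142, 6173, 4955 and 3314 CPM. In that order vit-2 stood at 7800, 12359, 8622, 7455 and 4546 CPM, and oma-1 at 109.8, 113.9, 107.0, 94.5 and 79.4 CPM. No fit of these markers without magnolol 2 or honokiol 2 is given. Their part in the isomer differences was not tested.

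Per kilobase of exon the members ran in the order ftn-2, ftn-1, cdf-2, ttm-1, smf-3 and zipt-2.3 in the control libraries. After ftn-2 and ftn-1, the means in control were 22.4 ± 1.17 CPM for cdf-2, 10.5 ± 1.48 CPM for ttm-1, 5.89 ± 0.285 CPM for smf-3 and 0.258 ± 0.255 CPM for zipt-2.3. With honokiol cdf-2 had 28.3 ± 3.30 CPM per kilobase and ftn-1 24.2 ± 1.90 CPM, so these neighbours stood in the other order. With magnolol they had 22.04 ± 2.01 and 22.9 ± 2.47 CPM per kilobase. The difference between ftn-1 and cdf-2 was larger than either SD in control and with honokiol, and smaller than either SD with magnolol. All other neighbours in the order differed by more than their SDs in each group.

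Across the 8 libraries the members did not share a single pattern. Pearson correlations of log2 CPM lay from -0.823 to 0.678 over 15 pairs. The extremes were ftn-1 with ttm-1, at -0.823 (Spearman -0.714), and ttm-1 with zipt-2.3, at 0.678 (Spearman 0.599). The value for ttm-1 with zipt-2.3 rests on the few counts of zipt-2.3, with 0 in honokiol 2 and control 3. The ferritin pair gave 0.184 (Spearman 0.405). The points share libraries and groups, so these values describe these samples only.

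Of 7635 genes with a symbol of their own and a mean level no lower than the median, the closest in pattern to ftn-1 were chch-3, which encodes a mitochondrial CHCH domain protein (r = 0.971), and Y75B8A.14 (r = 0.970). The closest to ftn-2 were C08F11.10 (r = 0.971) and the C-type lectin gene clec-119 (r = 0.963), and to smf-3 ZC434.4 (r = 0.922) and the transthyretin-like gene ttr-31 (r = 0.920). The closest to cdf-2 were the pyruvate kinase gene pyk-2 (r = 0.972) and F26G1.5 (r = 0.954). The closest to ttm-1 were mxl-2 (r = 0.961), which encodes a partner of the factor MML-1, and the triglyceride lipase gene atgl-1 (r = 0.957). The closest to zipt-2.3 were cpg-2 (r = 0.965), for an eggshell proteoglycan, and the PCNA gene pcn-1 (r = 0.948). Each r is over 8 libraries and was picked as 1 of the 2 largest among 7635 genes, so it is high partly by selection. Spearman values ran from 0.643 (smf-3 with ZC434.4) to 0.976 (ftn-2 with C08F11.10). The pattern of zipt-2.3 rests on few counts, with 0 in honokiol 2 and control 3.

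Around the members, 20 of 21 listed iron handling genes had a row and were tested, and ftn-1 was the only called gene, with magnolol in edgeR, limma-voom and DESeq2. With honokiol 0 were called by these tools, and 2 were lower and 0 higher at an unadjusted p under 0.05. With magnolol 4 uncalled genes, named here after their values were seen, were higher at an unadjusted p under 0.05, with differences of 0.65 for fpn-1.2, 0.42 for mdl-1, 0.29 for mfn-1 and 0.29 for mml-1, and 2 were lower, ftn-1 and smf-2. The share of all tested genes at that unadjusted threshold is not given for this or any other list. Such counts therefore do not set a list apart from other genes. The iron list median was 0.046 with magnolol and 0.085 with honokiol. The NRAMP relative smf-1 was at 15.2 ± 1.17 CPM with magnolol, 16.4 ± 1.70 CPM with honokiol and 15.2 ± 0.842 CPM in control. Its neighbour in the family, smf-2, had 8 counts over the magnolol libraries, 23 over the honokiol libraries and 47 over the control libraries. The smf-2 change with magnolol was -2.55 ± 0.93, with unadjusted p = 0.0157 and adjusted p = 0.196 in edgeR.

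The ferroportin genes, for proteins that export iron from cells, moved by uncalled amounts: fpn-1.1 by -0.0086 ± 0.13 with magnolol and -0.30 ± 0.15 with honokiol, and fpn-1.2 by 0.65 ± 0.28 and 0.45 ± 0.31. The gene hif-1, whose product is controlled mainly as a protein, was at 264 ± 30.2 CPM with magnolol, 211 ± 51.1 CPM with honokiol and 230 ± 11.6 CPM in control. The gut factor gene elt-2 was at 0.22 ± 0.11 with magnolol and 0.055 ± 0.13 with honokiol. Neither was called.

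Of 8 tested haem trafficking genes, which matter because worms cannot make haem, hrg-1 was called with honokiol. With magnolol 0 were called by edgeR, limma-voom or DESeq2, and 0 had an unadjusted p under 0.05. It encodes a haem transporter of intestinal vesicles. It stood at 22.4, 19.1 and 19.5 CPM in magnolol libraries 1 to 3, at 31.6 and 39.6 CPM in honokiol libraries 1 and 2, and at 21.8, 15.6 and 23.7 CPM in control libraries 1 to 3. Both honokiol libraries lay above all others. Honokiol against control gave 0.80 ± 0.16 with adjusted p = 0.00863 in edgeR, and adjusted p = 0.201 without honokiol 2. The magnolol change was -0.0018 ± 0.15.

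Of 14 ZIP zinc importer genes, all tested, zipt-2.1 was called higher with honokiol and 0 were called with magnolol by edgeR, limma-voom or DESeq2, where 0 also had an unadjusted p under 0.05. The zipt-2.1 level was 68.4, 69.1 and 68.5 CPM in magnolol libraries, 88.9 and 83.1 CPM in honokiol libraries, and 72.6, 59.7 and 55.9 CPM in control libraries. Both honokiol libraries lay above all others. The honokiol change was 0.45 ± 0.11 with adjusted p = 0.0356 in edgeR. The call was lost in 9 of 18 alternative settings. That p was 0.212 and 0.112 without honokiol 1 and 2, 0.131 and 0.0922 without control 2 and 3, and 0.0517 and 0.0714 without magnolol 1 and 3. It was 0.0986 without magnolol 2 and control 3, 0.0653 in a fit of only the groups compared and 0.134 with the replicate block. With magnolol 5 of the 14 lay above all controls, against 11.9% of all tested genes. With honokiol 4 of the 14 did, against 13.1% of all tested genes.

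None of the 4 tested CDF zinc exporter genes was called by edgeR, limma-voom or DESeq2 with either compound, and at an unadjusted p under 0.05 there was 1 higher with each, toc-1 with magnolol and cdf-2 with honokiol. Of the 4 zinc sensing and binding genes, 0 were called by these tools, and at an unadjusted p under 0.05 mtl-1 was lower with magnolol and mtl-2 higher with honokiol. The zinc sensor gene hizr-1 was at 5.91 ± 0.956 CPM with magnolol, 6.44 ± 0.00136 CPM with honokiol and 5.75 ± 0.299 CPM in control. Both honokiol libraries had 217 counts, so that SD is smaller than counting error. Of the metallothionein genes, mtl-1 was at -0.69 ± 0.30 with magnolol and -0.13 ± 0.33 with honokiol, and mtl-2 at 0.0094 ± 0.28 and 0.75 ± 0.30. For mtl-1 the magnolol libraries, at 1.93 to 2.69 CPM, overlapped the control libraries, at 2.54 to 4.89 CPM. For mtl-2 honokiol 1, at 3.18 CPM, lay within the control range of 2.48 to 3.24 CPM, and honokiol 2, at 6.17 CPM, above it. None of 4 copper handling genes was called by edgeR, limma-voom or DESeq2, with 1 lower with magnolol and 0 with honokiol at an unadjusted p under 0.05.

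**Figure D5:**
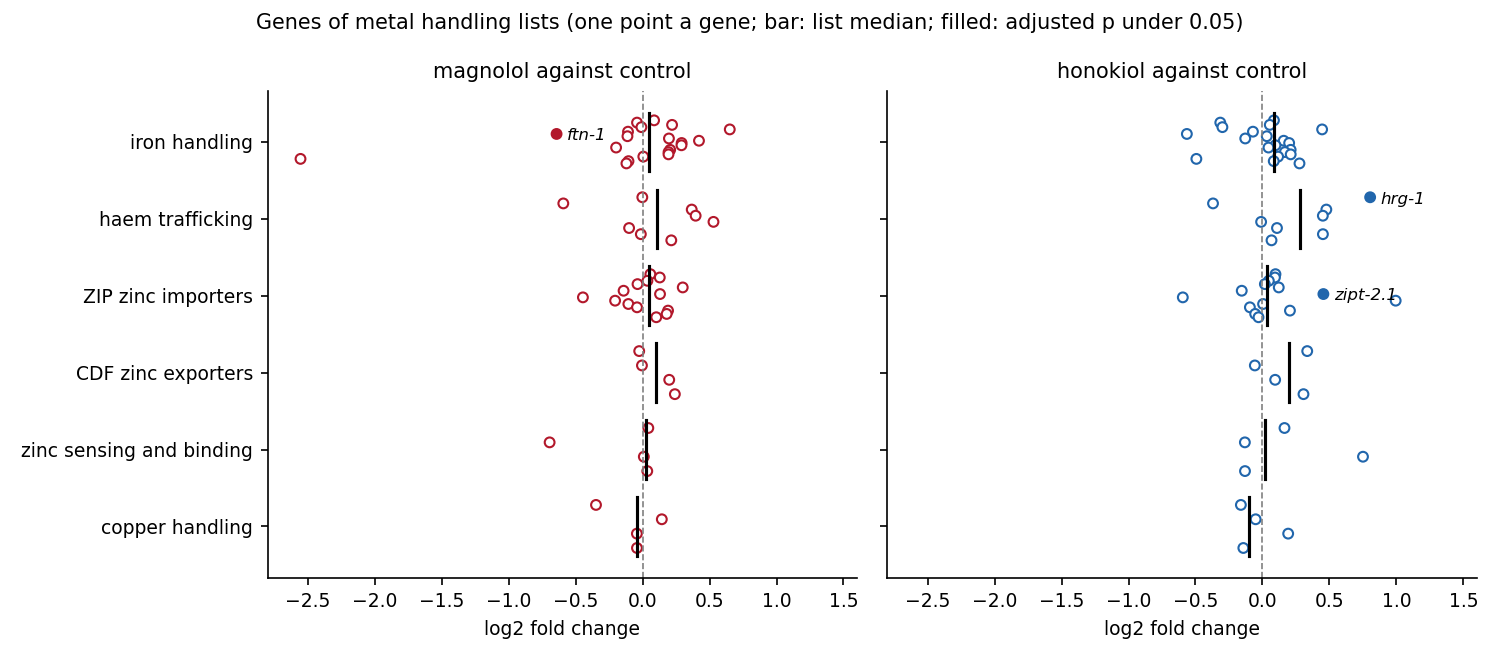
Log2 fold change (horizontal axis) of each tested gene in 6 metal handling lists for magnolol against control (left) and honokiol against control (right), with black bars for list medians and filled, named points where adjusted p is under 0.05. The called genes are ftn-1 with magnolol, and hrg-1 and zipt-2.1 with honokiol, while the list medians lie between -0.097 and 0.28.

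Markers of the main tissues were present, as whole worms should show, and no marker analysed was at 0 in any group. Several members act in the intestine, so its markers are given beside them. The summed level of 8 intestine markers was 4258 to 5388 CPM with magnolol, 3578 to 4377 CPM with honokiol and 4103 to 4572 CPM in control. With magnolol 0 of the 8 were called by edgeR, limma-voom or DESeq2, and 1 was higher at an unadjusted p under 0.05. Their changes ran from -0.14 to 0.30, with a median of 0.14. With honokiol the median was -0.12 and 1 of the 8, elt-7, was called higher (0.71 ± 0.18, adjusted p = 0.0456 in edgeR). That p was 0.470 without honokiol 2, 0.0735 without magnolol 3, and 0.148, 0.1455 and 0.0520 without control 1, 2 and 3. Oocyte and yolk markers summed to 16671 to 25699 CPM with magnolol, 9758 to 15510 CPM with honokiol and 13865 to 16622 CPM in control, with 0 of 5 called by edgeR or limma-voom, 1 with magnolol and 0 with honokiol by DESeq2, and 3 and 0 at an unadjusted p under 0.05 with magnolol and honokiol. Their part in the results above was not tested.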

How the data were processed

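The authors deposited whole-number read counts per gene row, without normalization, for 8 libraries placed by title. The submitters' processing notes name the build WBcel235 and DESeq2, with no role. Not given in the sources used here are the aligner, counter, annotation release and strand setting, and reads of overlapping or antisense genes cannot be told apart.

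Counts were tested with edgeR 4.0.16 in R 4.3.3: filterByExpr by group, TMM scaling and a group-means fit over all 8 libraries (glmQLFit, glmQLFTest), with Benjamini-Hochberg adjustment over 16813 rows at 0.05. The procedure was also run on simulated counts with the same spread for all genes. That setting does not imitate libraries that stand apart, and no result above rests on it. Exon lengths and positions came from Ensembl release 115 of WBcel235. Correlations used log2 CPM with a prior count of 2, and the 2 genes most like each member were named.

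Alternatives were DESeq2 1.42.0 and its size factors, upper-quartile scaling, no filter, a strict filter (50 counts in 3 libraries), limma-voom (limma 3.58.1), the groups compared alone, a replicate block, an exon length correction and each library left out. A fit without magnolol 2 and control 3 was added after the data were seen. Where 1 honokiol library was left, its spread was taken to be that of the other groups.

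The members, gene lists (57 metal handling genes, 55 with a row, and 33 tissue markers, 29 with a row) and tests were chosen with earlier results of these data known. Besides the members, the text names list genes that were called, a fixed set of reference genes and the closest genes. Other genes are named after their values were seen. The row for chca-1 was matched by its RefSeq sequence name. Plots used Python 3.11.15 and matplotlib 3.10.9.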

Additional observations from a re-analysis of the deposited data

Results flagged for a closer look

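The haem importer gene hrg-1 differed between the isomers in the direct test. The difference of magnolol minus honokiol was -0.81 ± 0.16, with means of 20.4 CPM with magnolol and 35.6 CPM with honokiol, and edgeR gave adjusted p = 0.0189. Body wall muscle, oocyte and yolk markers also differed between these libraries, as given above, and their part in this difference was not tested. All 3 magnolol libraries lay below both honokiol libraries. In edgeR that adjusted p was 0.0736 and 0.0924 without magnolol 2 and 3, and 0.403 without honokiol 2, and it ran from 9.18e-04 to 0.403 over 18 alternatives. No outlier test applied, since no group had 4 libraries.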

How the results depend on the processing

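With magnolol the 1 called member, ftn-1, was no longer called (0 of 6) without magnolol 2 and control 3 and with the replicate block, and the count was 0 to 1 when single libraries were left out. With honokiol 1 of 6, ftn-1, was called under the exon length correction, against 0. The cause was not tested. Over 391 recomputed changes of the members and of hrg-1, zipt-2.1 and elt-7, 342 kept direction and side of the threshold, 28 lost a call, 1 gained a call and 20 changed sign, all of them uncalled. Without magnolol 2 and control 3, cdf-2 was at 0.064 with magnolol, ftn-2 at -0.044 with honokiol and ftn-1 at 0.0031 between the isomers. With limma-voom, zipt-2.3 was at 0.79 with magnolol, -0.21 with honokiol and 1.00 between the isomers. Under the exon length correction, ftn-2 was at -0.021 with honokiol, and ftn-1 at 0.099 and ftn-2 at 0.017 between the isomers. Leaving out single libraries gave, with magnolol, -0.078 to 0.041 for cdf-2 and -0.77 to 0.72 for zipt-2.3. With honokiol it gave -0.047 to 0.12 for ftn-2 and -6.27 to 1.99 for zipt-2.3. Between the isomers it gave -0.17 to 0.0035 for ftn-1, -0.22 to 0.088 for ttm-1 and -2.2 to 6.07 for zipt-2.3. The values of -6.27 and 6.07 for zipt-2.3 set honokiol 2, with 0 counts, alone in its group, so they depend on the prior count and bound nothing. The strict filter removed zipt-2.3, and the fits of only the groups compared removed it in both comparisons with magnolol.

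The replicate number is not a shared culture or day in the labels, and same-numbered libraries deviated together by correlations of only -0.17 to 0.0862. With that number as a replicate block, ftn-1 was at -0.62 with adjusted p = 0.0642 in edgeR for magnolol, zipt-2.3 at 0.12 for magnolol, ftn-2 at -0.0042 for honokiol and ttm-1 at 0.0026 between the isomers, and zipt-2.1 and elt-7 with honokiol and hrg-1 between the isomers also lost their calls (adjusted p = 0.134, 0.126 and 0.0557 in edgeR). Over all genes the number called with magnolol ran from 294 without magnolol 3 to 762 in DESeq2, against 482, with honokiol from 412 without honokiol 2 to 728 in DESeq2, against 577, and between the isomers from 127 without honokiol 2 to 633 in DESeq2, against 257. Counts of zipt-2.3 and smf-2 were low, with 0 in some libraries, and zipt-2.3 also differed between the honokiol libraries by more than counting error.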
